A study of Mus musculus with 29 samples.

Results

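The genes described here are 5 components of the innate machinery that detects foreign or misplaced RNA inside mouse cells: Ddx58 (RIG-I, also Rigi), Ifih1 (MDA5), Dhx58 (LGP2), Mavs and Eif2ak2 (PKR). They were taken by symbol from the 48709 Ensembl genes of 3 count tables, and each symbol matched 1 gene. The study inhibited the microRNA miR-99b-5p with a locked nucleic acid oligonucleotide (anti-miR-99b) and compared it with a scrambled oligonucleotide (sc-control) in 29 RNA-seq libraries. In the first experiment, male C57BL/6J mice aged 3 months received either oligonucleotide in lipid nanoparticles by injection into the prefrontal cortex (PFC), and tissue was taken 5 days later (3 anti-miR-99b and 3 sc-control libraries). In the second, primary microglia shaken off mixed glial cultures of CD1 pups at postnatal day 1 were treated for 2 days (4 and 4 libraries). In the third, microglia treated in the same way were added to untreated neurons of CD1 embryos at embryonic day 17.5 and RNA was taken after 2 days of co-culture (7 anti-miR-99b and 8 sc-control libraries). The labels name no genetic change in any group. All groups received an oligonucleotide, so every comparison is with the scrambled one, and the libraries hold all cell types of the tissue or culture.

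RIG-I, MDA5 and LGP2 form a small family of cytoplasmic RNA helicases. RIG-I recognises short double-stranded RNA with an exposed triphosphate end, MDA5 assembles into filaments on long double-stranded RNA, and LGP2 lacks the signalling domains of both and tunes their activity. RIG-I and MDA5 pass the signal to MAVS, an adaptor on the outer mitochondrial membrane from which kinases activate the transcription factors that turn on interferon genes. PKR is a kinase that is switched on by double-stranded RNA and phosphorylates the translation factor eIF2alpha, which slows protein synthesis. RIG-I, MDA5, LGP2 and PKR are themselves well-known interferon-stimulated genes, MAVS is largely constitutive, and microglia, the resident immune cells of the brain, express the pathway.

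The oligonucleotide is directed at the mature microRNA, so its sequence is shown with the 2 relatives that share its seed, bases 2 to 8, in capitals (RefSeq, GRCm38.p6).
mmu-miR-99b-5p: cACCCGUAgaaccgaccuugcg
mmu-miR-99a-5p: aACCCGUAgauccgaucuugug
mmu-miR-100-5p: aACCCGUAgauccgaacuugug
miR-99b-5p lies at chr17:17830194-17830215 on the plus strand. A match to the reverse complement of its seed, TACGGGT, was present in the annotated 3′ untranslated region of 250 of 21028 genes (1.19%) and in 0 of the 5 genes described here, whose longest such regions ranged from 273 bases in Dhx58 to 2575 bases in Eif2ak2. The mature microRNA itself was not measured in these libraries, so the counts hold no check of the inhibition.

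RefSeq gave a promoter window, from 250 bases before to 50 bases after the transcript start, for 4 of the 5 genes (Ddx58, Ifih1, Mavs and Eif2ak2). The core of an interferon-stimulated response element, searched as GAAANNGAAA on both strands, was found in 1131 of 32851 such windows (3.44%). It was present once each in the windows of Ddx58, Ifih1 and Eif2ak2 and 0 times in that of Mavs, and Dhx58 had no window to search. The stretches of 30 bases that hold the matches are shown in the direction of transcription, with the match in capitals (in Ddx58 it reads as the reverse complement).
Ddx58: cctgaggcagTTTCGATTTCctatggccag
Ifih1: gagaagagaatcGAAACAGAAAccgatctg
Eif2ak2: agtccgccggGAAAACGAAAcagaagagaa
They lie at chr4:40239804-40239833, chr2:62646206-62646235 and chr17:78882535-78882564 of GRCm38.p6, all on the minus strand, and the matches start 3, 33 and 19 bases into the transcript. A match of letters is a description of the window, not a measured binding site.

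In the GENCODE M21 annotation of GRCm38, Ddx58 (ENSMUSG00000040296) covers chr4:40203773-40239828 on the minus strand, Ifih1 (ENSMUSG00000026896) covers chr2:62595798-62646255 on the minus strand and Dhx58 (ENSMUSG00000017830) covers chr11:100694884-100704271 on the minus strand. Mavs (ENSMUSG00000037523) covers chr2:131234063-131248025 on the plus strand and Eif2ak2 (ENSMUSG00000024079) covers chr17:78852564-78882573 on the minus strand. All are protein-coding genes, and the counts are sums over their exons. Exons of Dhx58 overlap the antisense gene Dhx58os, and exons of Eif2ak2 overlap the opposite-strand genes Gm26637 and n-R5s29. The library kit does not keep the strand, so reads of such pairs cannot be told apart where they overlap. Dhx58os itself was counted at no more than 7 reads in any library and Gm26637 at no more than 13.

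Libraries held 21324156 to 37901110 reads on genes, and all 5 genes passed the filter on low counts in all 3 experiments. The tissue and cultures carried their defining markers. PFC libraries summed to 14181 to 15309 counts per megaread of effective library size (CPM) over 15 neuron markers, primary microglia to 21158 to 22382 CPM over 20 microglia markers, and co-cultures to 9528 to 9892 CPM over the neuron markers and 268 to 353 CPM over the microglia markers. No 2 replicates agreed within counting noise. The study describes the PFC libraries as made from single mice and counts replicates as biological samples, while the labels do not say which culture libraries came from separate preparations. For the cultures, p-values measure the spread between these libraries, which may be partly technical.

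The sensors were most abundant in primary microglia. To compare genes, CPM scaled over all 29 libraries was divided by the exon length in kilobases (kb). In sc-control microglia, Mavs stood highest with 19.8 ± 0.59 CPM per kb (mean ± SD, n = 4), followed by Eif2ak2 with 15.1 ± 1.0, Dhx58 with 10.6 ± 1.2, Ddx58 with 8.77 ± 1.1 and Ifih1 with 6.20 ± 0.34. The libraries of Mavs did not overlap those of Eif2ak2 (lowest 19.2 against highest 16.1), whereas those of Dhx58 and Ddx58 did overlap (lowest 9.23 against highest 10.0).

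**Figure D1:**
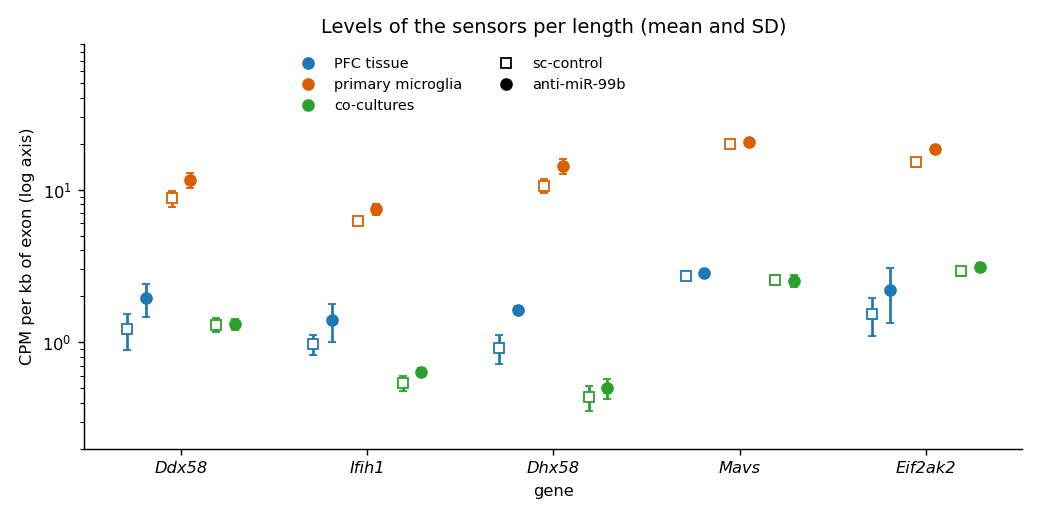
Levels of the 5 genes in CPM per kb of exon (log axis), mean and SD over the libraries of each group; squares are sc-control, circles anti-miR-99b, and colours mark the experiments. Primary microglia lie above PFC tissue and co-cultures for every gene, and the order of PFC tissue and co-cultures differs between genes.

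In sc-control PFC tissue the levels ran from 0.922 ± 0.20 CPM per kb for Dhx58 and 0.969 ± 0.14 for Ifih1 to 2.70 ± 0.07 for Mavs (n = 3). Dhx58, Ifih1 and Ddx58 (1.21 ± 0.33) did not separate beyond their spread in the tissue. Sc-control co-cultures held 0.434 ± 0.08 CPM per kb of Dhx58, 0.538 ± 0.06 of Ifih1, 1.30 ± 0.14 of Ddx58, 2.57 ± 0.19 of Mavs and 2.92 ± 0.20 of Eif2ak2 (n = 8). Mavs was thus the most abundant of the 5 in microglia and PFC tissue, while Eif2ak2 had the highest mean in co-cultures, where the libraries of Mavs and Eif2ak2 overlapped. Strain, age and culture differ between the experiments, so these levels were not tested against each other.

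The first comparison asked how inhibition of miR-99b-5p changed expression in the adult PFC. The 3 helicase sensors had 1.44-fold to 1.77-fold higher means after anti-miR-99b. Their libraries did not overlap between groups, as for 7.52% of all genes. However, 0 of the 5 genes passed an adjusted p under 0.1 with a log2FC beyond 0.2, the threshold used with edgeR's quasi-likelihood test. In the same test 15 of 17364 genes (0.0864%) passed as higher and 0 as lower. Mavs differed by 0.07 on the log2 scale.

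Dhx58, the regulator without signalling domains, had the largest difference of the 5 in the tissue. It was measured at 3.02, 2.61 and 3.99 CPM in sc-control replicates 2, 3 and 4 and at 5.64, 5.47 and 5.95 CPM in anti-miR-99b replicates 1, 2 and 3. All anti-miR-99b libraries lay above all sc-control libraries, and the anti-miR-99b libraries were tightly grouped. The log2FC was 0.82 (SE 0.16, 95% interval 0.46 to 1.18, edgeR adjusted p = 0.224). These values rest on 74 to 181 reads per library.

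Ddx58, the RIG-I gene, was measured at 7.88, 7.36 and 12.0 CPM in the sc-control libraries and at 12.5, 12.4 and 18.5 CPM in the anti-miR-99b libraries, in the same order of replicates. The groups were separated by a small margin, and sc-control replicate 4 reached nearly the level of anti-miR-99b replicates 1 and 2. Its log2FC was 0.68 (SE 0.21, 95% interval 0.22 to 1.13, edgeR adjusted p = 0.518).

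Ifih1, the MDA5 gene, was measured at 7.37, 8.00 and 9.84 CPM against 10.3, 9.93 and 15.9 CPM. The groups again did not overlap, with 9.84 CPM in sc-control replicate 4 just under 9.93 CPM in anti-miR-99b replicate 2. Its log2FC was 0.52 (SE 0.19, 95% interval 0.11 to 0.94, edgeR adjusted p = 0.626). Eif2ak2, the PKR gene, was measured at 7.90, 6.13 and 10.8 CPM against 8.86, 9.68 and 17.2 CPM. Here the groups overlapped, since sc-control replicate 4 lay above anti-miR-99b replicates 1 and 2, and the log2FC of 0.53 (SE 0.26, 95% interval -0.05 to 1.11) had an adjusted p of 0.660 in edgeR.

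Mavs was measured at 9.44, 9.37 and 9.96 CPM against 10.5, 9.54 and 10.2 CPM. The groups overlapped and the log2FC of 0.07 had a 95% interval of -0.14 to 0.28. Over the 5 genes the median log2FC was 0.53, against 0.00 over all genes tested. Libraries that did not overlap and were higher after anti-miR-99b were found for 3 of the 5 genes and for 7.52% of all genes. With 3 libraries against 3, the exact two-sided permutation test of a single gene cannot go below p = 0.10, and it gave 0.10 for each of the 3 helicases. At an unadjusted p under 0.05 in edgeR stood the 3 helicases and 7.64% of all genes.

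**Figure D2:**
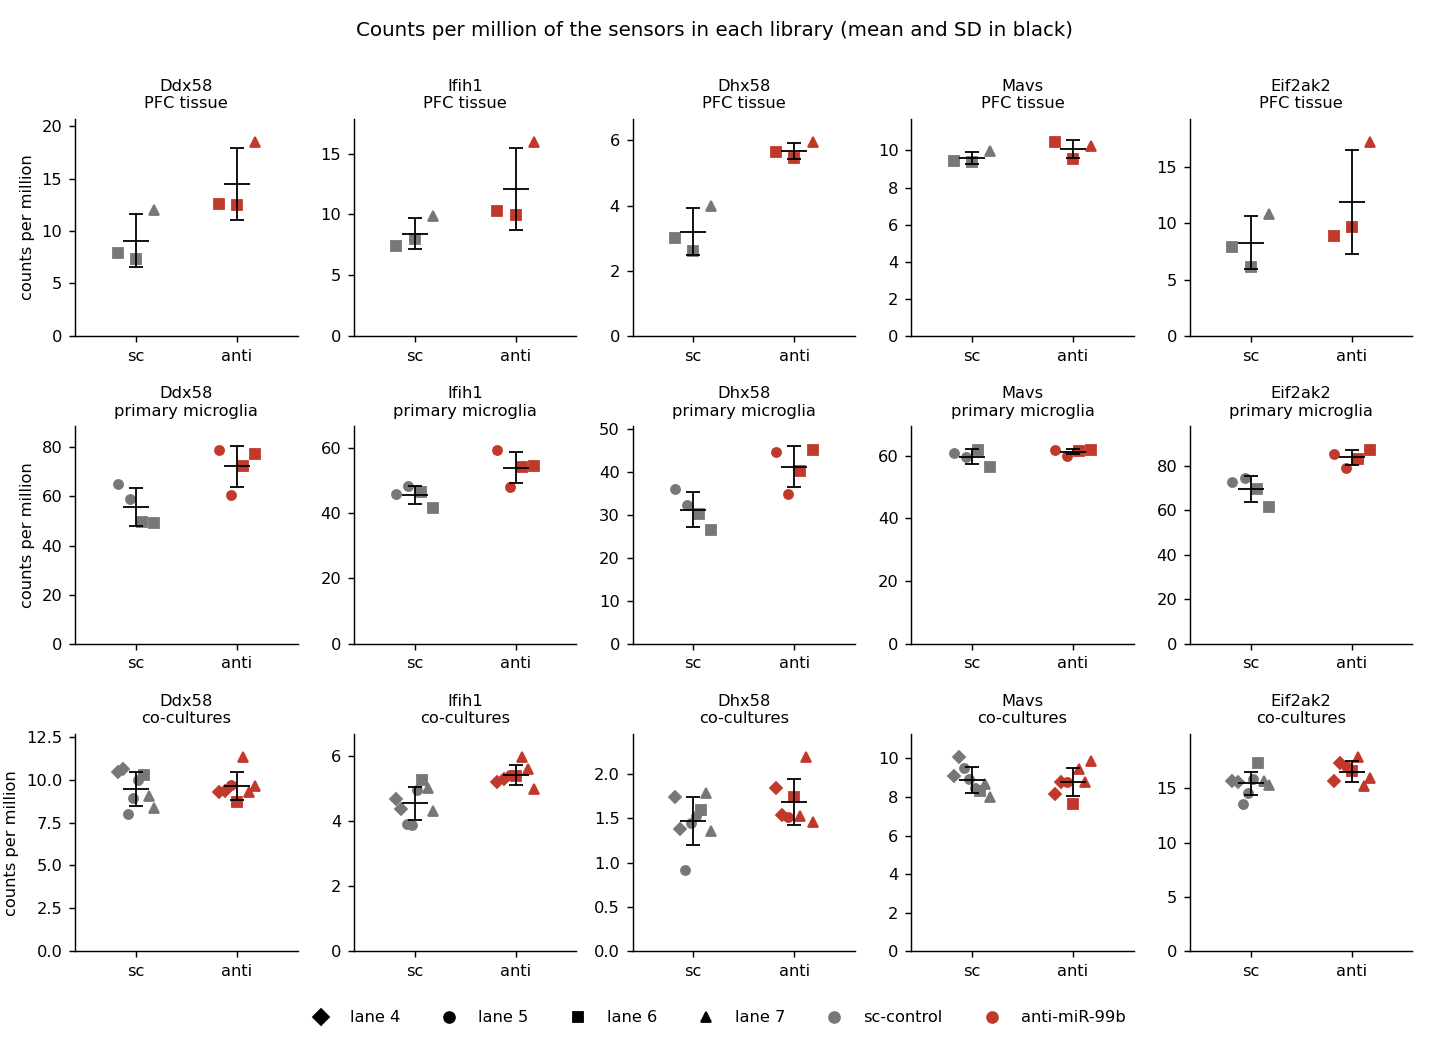
CPM of each gene (columns) in each library of the 3 experiments (rows), sc-control in grey and anti-miR-99b in red, with the sequencing lane as the marker shape and the mean and SD in black. The 2 PFC libraries of lane 7 are the highest of their group for Ddx58, Ifih1, Dhx58 and Eif2ak2, and the helicases and Eif2ak2 lie higher after anti-miR-99b in primary microglia.

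In the PFC, lane 7 carried replicate 3 of anti-miR-99b and replicate 4 of sc-control and lane 6 the other libraries, and both lane 7 libraries were the highest of their group for all of the genes but Mavs. The differences of log2(CPM + 0.5) within lane 6 (2 against 2) and within lane 7 (1 against 1) were 0.68 and 0.61 for Ddx58, 0.38 and 0.67 for Ifih1, 0.87 and 0.52 for Dhx58, 0.08 and 0.04 for Mavs and 0.39 and 0.65 for Eif2ak2. With the lane as a block, Ddx58 (log2FC 0.68, adjusted p = 0.0158) and Dhx58 (log2FC 0.83, adjusted p = 0.0501) passed the threshold in edgeR. With 1 factor of unwanted variation, an option that the study's methods name, all of the genes but Mavs passed it (adjusted p from 0.0215 to 0.0741). DESeq2 passed Dhx58 alone of the 5 (adjusted p = 0.0267), where 84 of all genes passed in either direction. For the fits with lane or a factor and those with a library left out, no count over all genes is given here. Their calls are therefore not a result particular to these genes. Over 9 alternatives other than leaving out a single library, the edgeR or DESeq2 adjusted p of Dhx58 ran from 5.2e-06 to 0.569, of Ddx58 from 2.9e-10 to 0.572, of Ifih1 from 4.5e-05 to 0.658 and of Eif2ak2 from 1.2e-07 to 1.00, where the lowest values come from a fit of 4 libraries with 1 residual degree of freedom.

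Leaving out anti-miR-99b replicate 3 lowered the log2FC of Ddx58 to 0.46, of Ifih1 to 0.27 and of Eif2ak2 to 0.16. Without sc-control replicate 4, Ddx58 (log2FC 0.93, adjusted p = 0.0542) and Dhx58 (log2FC 1.01, adjusted p = 0.0224) passed. Microglia markers moved in the same direction in this tissue. Of 20 such markers, 18 had a higher mean after anti-miR-99b, 8 of them at an unadjusted p under 0.05 and 0 past the threshold, with none at 0 in every library. Their summed level was 1126 to 1233 CPM in anti-miR-99b and 836 to 1171 CPM in sc-control libraries. With the mean marker level of each library as a covariate, the log2FC was 0.40 for Ddx58, 0.39 for Ifih1, 0.60 for Dhx58 and 0.25 for Eif2ak2, none past the threshold. Of 12 markers of infiltrating leukocytes 5 were abundant enough to be tested and 4 of them had a higher mean, with a summed level of 7.02 to 9.08 CPM against 6.06 to 7.60 CPM. Of 10 vascular and mural cell markers 7 had a higher mean and 0 passed (354 to 413 CPM against 349 to 402 CPM). In bulk RNA, a change in the number of cells of a type and a change in RNA per cell cannot be told apart.

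The second comparison asked for the response of microglia alone. Ddx58, Ifih1, Dhx58 and Eif2ak2 rose by 1.19-fold to 1.33-fold after anti-miR-99b and Mavs did not pass the test. Thus 4 of the 5 genes passed an adjusted p under 0.1 with a log2FC beyond 0.1, where 65 of 14953 genes (0.435%) passed as higher and 8 (0.0535%) as lower. The median log2FC of the 5 genes was 0.27, against 0.00 over all genes.

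Eif2ak2 showed the clearest separation. It was measured at 72.6, 74.4, 69.4 and 61.3 CPM in sc-control replicates 2, 3, 4 and 6 and at 85.5, 79.0, 83.2 and 87.2 CPM in anti-miR-99b replicates 1, 3, 4 and 5. All anti-miR-99b libraries lay above all sc-control libraries, as for 1.65% of all genes. The log2FC was 0.27 (SE 0.05, 95% interval 0.18 to 0.37, edgeR adjusted p = 0.0115), and the exact two-sided permutation test gave p = 0.0286, the smallest value that 4 against 4 libraries allow.

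Dhx58 was measured at 36.1, 32.3, 30.2 and 26.6 CPM against 44.7, 34.9, 40.3 and 45.3 CPM, in the same order of replicates. The groups overlapped by 1 library, anti-miR-99b replicate 3, which lay below sc-control replicate 2. Its log2FC was 0.41 (SE 0.08, 95% interval 0.26 to 0.57, edgeR adjusted p = 0.0232). Ddx58 was measured at 65.1, 58.9, 49.6 and 49.3 CPM against 79.1, 60.5, 72.3 and 77.2 CPM. Again only anti-miR-99b replicate 3 lay within the range of the controls, and the log2FC was 0.39 (SE 0.07, 95% interval 0.23 to 0.54, edgeR adjusted p = 0.0238).

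Ifih1 was measured at 45.8, 48.4, 46.6 and 41.7 CPM against 59.5, 47.9, 54.0 and 54.4 CPM. Anti-miR-99b replicate 3 lay just below sc-control replicate 3, and the log2FC was 0.25 (SE 0.05, 95% interval 0.13 to 0.36, edgeR adjusted p = 0.0421). Mavs, the adaptor, was measured at 61.0, 59.5, 61.8 and 56.5 CPM against 61.9, 60.0, 61.5 and 61.8 CPM. The groups of Mavs overlapped, with sc-control replicate 6 the lowest library, and the 95% interval of its log2FC, -0.03 to 0.11, ended below the log2FC of Ddx58, Ifih1, Dhx58 and Eif2ak2.

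Lanes 5 and 6 each held 2 libraries of each group, and the differences of log2(CPM + 0.5) were smaller on lane 5 than on lane 6. They were 0.16 and 0.59 for Ddx58, 0.18 and 0.30 for Ifih1, 0.21 and 0.58 for Dhx58, 0.02 and 0.06 for Mavs and 0.16 and 0.38 for Eif2ak2. The calls depended on single libraries although the differences stayed positive. Without sc-control replicate 4 (adjusted p from 0.116 to 0.237) or without anti-miR-99b replicate 5 (0.170 to 0.249), 0 of the 5 genes passed, without sc-control replicate 6 or anti-miR-99b replicate 1 only Eif2ak2 passed, and without anti-miR-99b replicate 4 Ifih1 did not pass (adjusted p = 0.166). DESeq2 passed Ifih1 (adjusted p = 0.0222) and Eif2ak2 (9.1e-04) but not Ddx58 (0.518) or Dhx58 (0.253). In that test 40 of all genes passed in either direction. Over the same 9 alternatives the highest adjusted p was 0.547 for Ifih1 and 0.0338 for Eif2ak2, and the log2FC of Ddx58, Ifih1, Dhx58 and Eif2ak2 was positive in each.

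The microglia cultures held RNA of astrocyte markers. Of 20 microglia markers 19 were tested and 0 passed the threshold, with a summed level of 21560 to 22382 CPM in anti-miR-99b and 21158 to 22076 CPM in sc-control libraries. Of 10 astrocyte markers the mean of 9 was lower in treated cultures and 0 passed (294 to 337 CPM against 310 to 344 CPM). Of 4 vascular and mural cell markers tested 3 had a higher mean and 0 passed (60.8 to 68.8 CPM against 58.1 to 67.9 CPM). With the astrocyte marker level as a covariate, Ddx58 (log2FC 0.31), Dhx58 (0.34) and Eif2ak2 (0.24) passed, and Ifih1 (0.19, adjusted p = 0.121) did not.

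The third comparison asked what neurons and treated microglia expressed together. In co-cultures 0 of the 5 genes passed an adjusted p under 0.05 with a log2FC beyond 0.1, where 137 of 16193 genes (0.846%) passed as higher and 90 (0.556%) as lower. Ifih1 and Eif2ak2 had an unadjusted p under 0.05 in edgeR, as did 13.2% of all genes. DESeq2 passed 0 of the 5 and 281 of all genes in either direction. The median log2FC of the 5 genes was 0.10, against 0.00 over all genes.

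Ifih1 had the largest difference. It ranged from 3.88 to 5.25 CPM with a median of 4.52 in the 8 sc-control libraries and from 4.97 to 5.95 CPM with a median of 5.36 in the 7 anti-miR-99b libraries. The groups overlapped at their edges, and no gene of the 5 had libraries that did not overlap (0.303% of all genes had such libraries, higher after anti-miR-99b). The log2FC was 0.24 (SE 0.07, 95% interval 0.10 to 0.39, edgeR adjusted p = 0.0744), close to its value in microglia alone, and the exact two-sided permutation test gave p = 0.0028. With 1 factor of unwanted variation it passed the threshold (log2FC 0.24, edgeR adjusted p = 0.0271), and over its 9 alternatives the adjusted p ran from 0.0271 to 1.00.

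Eif2ak2 ranged from 13.6 to 17.3 CPM (median 15.6) in sc-control and from 15.2 to 17.8 CPM (median 16.6) in anti-miR-99b libraries, with a log2FC of 0.10 (95% interval 0.00 to 0.20, edgeR adjusted p = 0.353). The ranges overlapped over most of their width. Dhx58, the scarcest of the 5 with 28 to 68 reads per library, ranged from 0.913 to 1.79 CPM (median 1.49) and from 1.47 to 2.19 CPM (median 1.54), and its log2FC of 0.18 had a 95% interval of -0.08 to 0.44. Ddx58 ranged from 7.99 to 10.6 CPM (median 9.51) and from 8.72 to 11.3 CPM (median 9.35), with a log2FC of 0.03 and a 95% interval of -0.10 to 0.16. The medians of Ddx58 and of Mavs were close in both groups, and Mavs ranged from 8.03 to 10.1 CPM (median 8.80) and from 7.66 to 9.86 CPM (median 8.78), with a log2FC of -0.01 and a 95% interval of -0.13 to 0.11.

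Within the 4 lanes of the co-cultures, the difference of log2(CPM + 0.5) was positive on every lane for Ifih1 (0.03 to 0.33) and Dhx58 (0.09 to 0.18), and took both signs for Ddx58 (-0.22 to 0.20), Mavs (-0.17 to 0.16) and Eif2ak2 (-0.06 to 0.21). Lanes held from 1 to 3 libraries of a group. Microglia markers were higher in the anti-miR-99b co-cultures. Of 19 such markers tested, 17 had a higher mean and 9 rose past the threshold (Cx3cr1, Csf1r, C1qa, C1qb, C1qc, Trem2, Tyrobp, Ctss and Cd68), none was at 0 in every library, and the summed level was 309 to 353 CPM against 268 to 325 CPM. Trem2, a receptor of microglia for lipids, had the largest of these differences (log2FC 0.70, edgeR adjusted p = 0.0011). With the marker level as a covariate, the log2FC was 0.21 for Ifih1, 0.09 for Eif2ak2 and -0.10 for both Ddx58 and Dhx58, none past the threshold. The marker level was itself higher after anti-miR-99b, so this fit cannot fully separate it from the treatment. In it the SE of Ifih1 was 0.11, against 0.07 without the covariate. Of 4 vascular and mural cell markers tested 3 had a higher mean and 0 passed (14.3 to 17.4 CPM against 13.6 to 16.4 CPM).

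**Figure D3:**
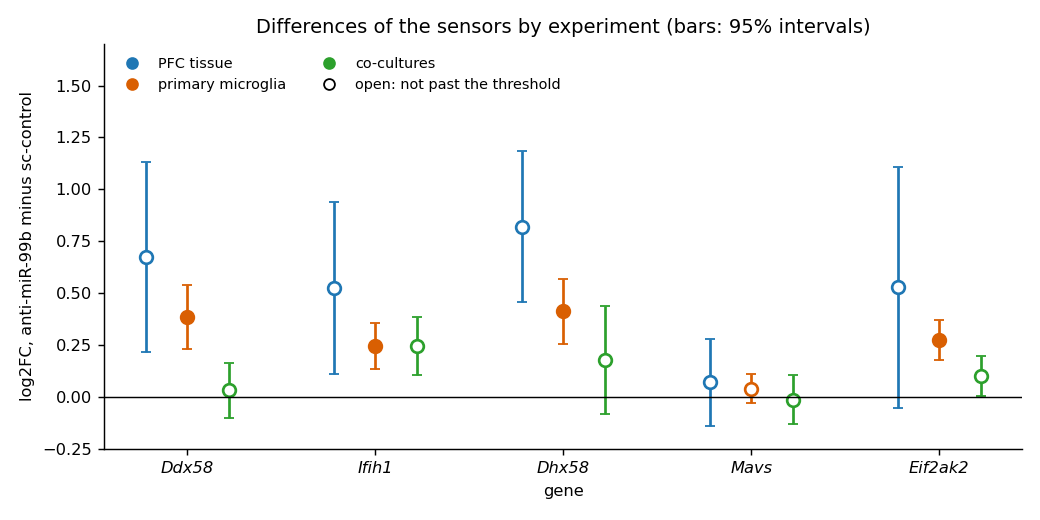
Difference of each gene between anti-miR-99b and sc-control as log2FC with its 95% interval in the 3 experiments; filled points passed the threshold of their experiment. The 4 filled points are Ddx58, Ifih1, Dhx58 and Eif2ak2 in primary microglia, the intervals are widest in PFC tissue, and those of Mavs span 0 in all 3 experiments.

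Whether the response differed between the experiments was tested in 1 edgeR fit over all 29 libraries. At an adjusted p under 0.05, 0 of the 5 genes passed in any of the 3 contrasts, in which 0.469% (PFC minus microglia), 0.0844% (co-culture minus microglia) and 0.791% (PFC minus co-culture) of 18963 genes passed. The log2FC of Ddx58 was 0.65 higher in the PFC than in co-cultures (95% interval 0.28 to 1.02, adjusted p = 0.0763) and 0.37 lower in co-cultures than in microglia (95% interval -0.66 to -0.08, adjusted p = 0.790). The log2FC of Dhx58 was 0.64 higher in the PFC than in co-cultures (95% interval 0.22 to 1.07, adjusted p = 0.135). That of Ifih1 differed between co-cultures and microglia by -0.02 (95% interval -0.29 to 0.24), and that of Mavs by at most 0.09 in any contrast. Strain, age and route of delivery changed between the PFC and the cultures and cannot be told apart from the experiment. Co-cultures differed from microglia in their untreated embryonic neurons and in the 2 days of co-culture. Microglia markers summed to 268 to 353 CPM in co-cultures and to 21158 to 22382 CPM in microglia. What these differences did to the contrasts was not tested.

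Across libraries, Ddx58, Ifih1 and Eif2ak2 varied together, and Mavs had the lowest pooled coefficients. After the mean of each of the 6 groups was subtracted from log2 CPM, Pearson r over the 29 libraries was 0.83 between Ddx58 and Eif2ak2, 0.83 between Ifih1 and Eif2ak2 and 0.78 between Ddx58 and Ifih1. Dhx58 correlated with them at 0.58 (Ddx58), 0.55 (Ifih1) and 0.45 (Eif2ak2). The coefficients of Mavs were 0.35 with Ddx58, 0.10 with Eif2ak2, 0.03 with Ifih1 and -0.13 with Dhx58. Within single experiments the pair of Ddx58 and Eif2ak2 gave 0.95 in the PFC, 0.77 in microglia and 0.67 in co-cultures, and that of Ddx58 and Dhx58 gave 0.85, 0.95 and 0.28. The coefficients of Mavs with the other 4 genes ran from 0.44 to 0.65 in the PFC, from 0.49 to 0.77 in microglia and from -0.40 to 0.39 in co-cultures, which make up 15 of the 29 libraries. These points share library depth and composition, and the coefficients are descriptions. The lane was not subtracted, and both lane 7 libraries of the PFC were the highest of their group for all of the genes but Mavs. Values were not scaled within experiments, so groups with a wide spread weigh most in the pooled coefficients. Eif2ak2 had an SD of 4.6 CPM at a mean of 11.9 CPM in anti-miR-99b PFC libraries. In anti-miR-99b co-cultures its SD was 0.96 CPM at a mean of 16.5 CPM.

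**Figure D4:**
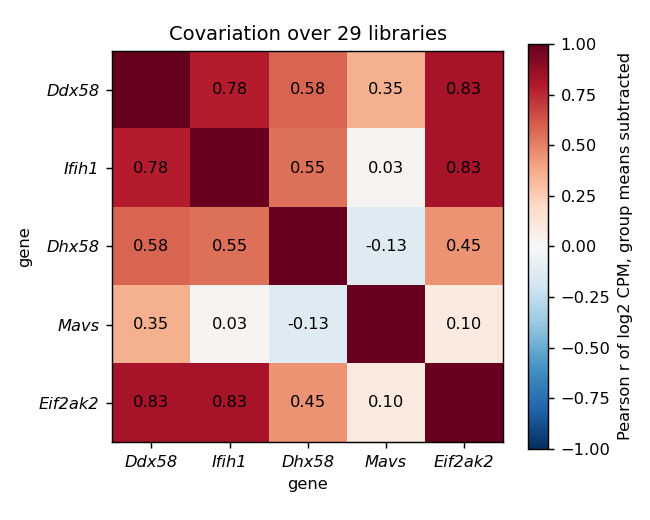
Pearson r of log2 CPM between the 5 genes over 29 libraries after subtraction of the 6 group means; colour and printed values give r. Ddx58, Ifih1 and Eif2ak2 form the block of highest values, 0.78 to 0.83, and the pooled row of Mavs runs from -0.13 to 0.35.

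The genes most like each of the 5, by the same measure among 13650 genes tested in all experiments, were named by rank, 5 for each. The limits of lane and of unequal spread given above hold for these coefficients too. For Ddx58 they were Usp18, a protease that removes ISG15 (r = 0.90), Rnf213 (0.88), Parp14 (0.87), the ubiquitin-like Isg15 (0.86) and Ifit3b (0.85). Ifih1 was followed by Trim30a (0.84), Ppip5k2 (0.83), Eif2ak2 (0.83), Samd9l (0.82) and Rnf213 (0.82). Those of Eif2ak2 were Trim30a (0.88), Rnf213 (0.88), the helicase Ddx60 (0.87), the guanylate-binding protein Gbp7 (0.87) and B230219D22Rik (0.87). Dhx58 was followed less closely by Isg15 (0.77), Rtp4 (0.75), the nucleotide hydrolase Samhd1 (0.74), Xaf1 (0.73) and Oas2 (0.72), an oligoadenylate synthase. Mavs shared none of these, and its list was Tedc1 (0.72), Gm16576 (0.65), Rnf31 (0.65), Cited2 (0.65) and Rilpl2 (0.65).

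The rest of the pathway was described by 6 lists of genes. In PFC tissue 0 genes of any list passed the threshold. The median log2FC was -0.02 over 18 regulators of the helicase sensors (7 with a higher mean), 0.05 over 21 genes of MAVS signalling (12 higher), -0.03 over 14 genes of PKR and the other eIF2alpha kinases (6 higher), 0.10 over 14 targets of the integrated stress response (9 higher), 0.01 over 4 tested interferon ligands and receptors (2 higher) and 0.15 over 6 endosomal RNA receptors (5 higher). At an unadjusted p under 0.05 in edgeR stood 7.64% of all genes, in either direction. Of the lists, 3 regulators, 5 genes of MAVS signalling, 1 stress response target and 1 endosomal receptor stood there as higher. As lower stood 1 regulator, 1 gene of MAVS signalling and 1 of the eIF2alpha kinase list.

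In microglia 3 genes of the lists rose past the threshold and 0 fell, where 0.435% of all genes rose. Irf7, the transcription factor that amplifies interferon production, rose from 34.4 ± 6.8 to 53.2 ± 8.8 CPM (n = 4 each, log2FC 0.65, edgeR adjusted p = 0.0106). Ifit3, an interferon-induced antiviral protein, rose from 6.89 ± 1.3 to 11.1 ± 2.5 CPM (log2FC 0.71, edgeR adjusted p = 0.0238). Adar, the RNA-editing enzyme that keeps cellular double-stranded RNA from activating MDA5 and PKR, rose from 98.3 ± 5.8 to 114 ± 9.0 CPM (log2FC 0.22, edgeR adjusted p = 0.0405). Irf7 and Ifit3 belong to the 21 genes of MAVS signalling, of which 18 had a higher mean, and Adar to the 17 tested regulators, of which 10 had. The libraries of all 3 genes overlapped between groups. DESeq2 kept Adar (adjusted p = 0.0198) but not Irf7 (0.184) or Ifit3 (0.289). No list gene passed in edgeR without sc-control replicate 4 or without anti-miR-99b replicate 5, and 1 did without sc-control replicate 6 or without anti-miR-99b replicate 1, against 9 without sc-control replicate 2. By contrast 0 genes passed among 14 of PKR and the other eIF2alpha kinases, 14 targets of the integrated stress response, 4 interferon ligands and receptors and 6 endosomal RNA receptors, whose medians lay between 0.00 and 0.03.

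In co-cultures 2 genes of the lists rose past the threshold and 0 fell, where 0.846% of all genes rose. Ikbke, a kinase downstream of MAVS, rose from 7.90 ± 0.47 to 9.93 ± 0.86 CPM (n = 8 and 7, log2FC 0.33, edgeR adjusted p = 0.0020) with no overlap between groups. Atf3, a stress-induced transcription factor, rose from 5.49 ± 0.48 to 6.76 ± 0.66 CPM (log2FC 0.29, edgeR adjusted p = 0.0233). In DESeq2 the adjusted p was 7.5e-05 for Ikbke and 0.0084 for Atf3. In edgeR 1 list gene passed with lane as a block, 1 with the replicate block and 0 with the microglia marker level as a covariate. Microglia markers were higher in these libraries, 9 of 19 past the threshold. Their level thus moved with the treatment, and the covariate fit cannot fully separate them. The part of the markers in the change of Ikbke and Atf3 was not tested. Medians over the 6 lists were 0.02 for the regulators, for MAVS signalling and for the eIF2alpha kinases, 0.08 for targets of the integrated stress response, 0.04 for the interferon genes and 0.07 for the endosomal receptors.

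**Figure D5:**
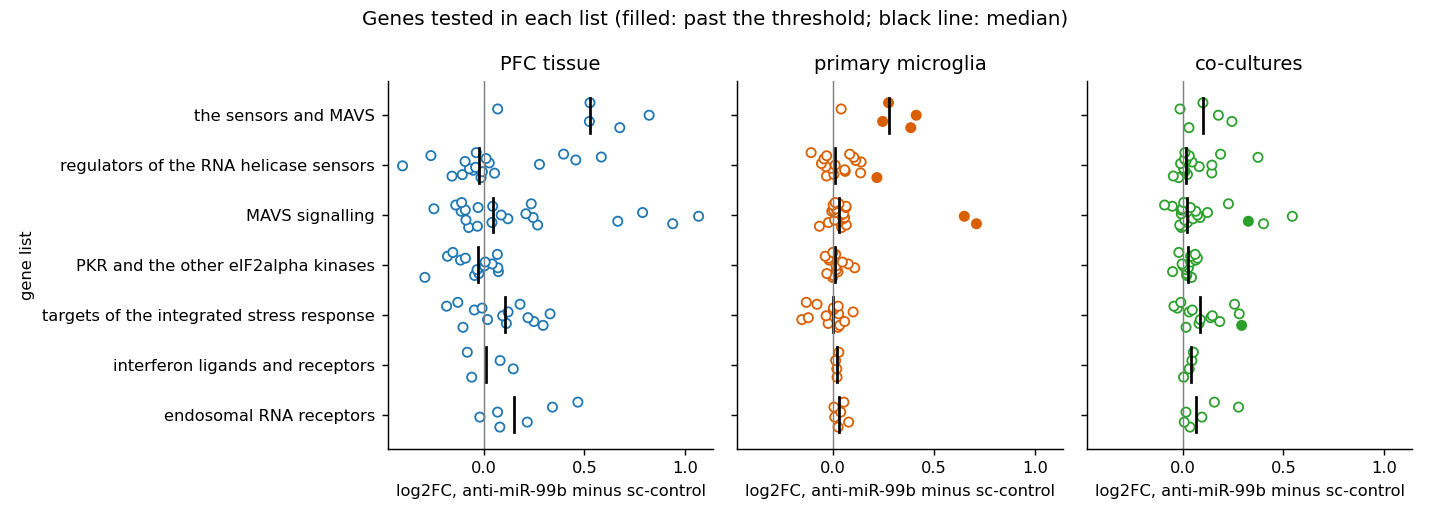
log2FC of each tested gene in the 6 pathway lists and of the 5 genes themselves (top row) in the 3 experiments; filled points passed the threshold and black lines are medians. The filled points are 4 sensors and Irf7, Ifit3 and Adar in microglia, and Ikbke and Atf3 in co-cultures.

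Interferon ligands were at or near 0 throughout. Ifnb1, the gene of interferon-beta, was counted with 2 reads over all PFC libraries, 4 over all microglia libraries and 0 over all co-culture libraries, and was too scarce to be tested. Of the 26 genes of that list 14 were at 0 in every PFC library, 19 in every microglia library and 18 in every co-culture library. Tlr3, the endosomal receptor for double-stranded RNA, had log2FC of 0.07 in the PFC, 0.04 in microglia and 0.02 in co-cultures, none past the threshold. Tlr7, the endosomal receptor for single-stranded RNA, had log2FC of 0.34 in the PFC (edgeR adjusted p = 0.686), 0.00 in microglia (0.991) and 0.28 in co-cultures (0.0577), and did not pass in any of them.

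Other RNA helicases were counted as a family. Of 51 further genes with Ddx or Dhx symbols 50 were tested in each experiment, 0 passed the threshold in any, and 25, 29 and 26 had a higher mean after anti-miR-99b in the PFC, in microglia and in co-cultures. Their median log2FC was 0.00 in all 3 experiments, from which single genes departed. Ddx60, named above beside Eif2ak2, had a log2FC of 0.77 in the PFC, 0.29 in microglia and 0.07 in co-cultures. Its edgeR adjusted p was 0.649, 0.191 and 0.833, and its groups overlapped in each. At an unadjusted p under 0.05 in edgeR stood 2 of the family higher in the PFC and 1 in co-cultures. In microglia 5 stood there as higher and 1 as lower. Of all genes 7.64% in the PFC, 6.45% in microglia and 13.2% in co-cultures had such a p, in either direction.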

How the data were processed

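RNA was prepared with the TrueSeq RNA library prep kit v2, which does not keep strand, and sequenced in single reads. The authors aligned reads to mm10 with STAR (2.5.2b) and deposited, as made with featureCounts (1.5.1), raw read counts per Ensembl gene in 3 tables, 1 per experiment; no column was left without a sample. Groups follow the labels. The genes and lists were chosen with earlier results of these data known.

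Symbols, coordinates and exon lengths were taken from GENCODE M21 (48349 of 48709 identifiers matched), promoters and microRNAs from RefSeq. Counts were tested per experiment with edgeR (4.0.16; TMM factors, filterByExpr, quasi-likelihood test, Benjamini-Hochberg adjustment over all genes tested; R 4.3.3), after a check on simulated counts. Thresholds were an adjusted p under 0.1 with log2FC beyond 0.2 (PFC), 0.1 with 0.1 (microglia, for which the methods state none) and 0.05 with 0.1 (co-cultures). Effects were compared between experiments in a fit with 6 group means. Single genes were also tested by exact permutation of log2(CPM + 0.5). Named were the 5 genes in all experiments, list genes past the threshold, Ifnb1, Tlr3, Tlr7, and the 5 genes most correlated with each of the 5.

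Alternatives were DESeq2 (1.42.0), other scaling factors, other filters, 1 factor of unwanted variation, lane or replicate number as a block, a marker level as a covariate, limma-voom (limma 3.58.1) and each replicate left out for groups of up to 5. Same-numbered libraries did not deviate together (r from -0.28 to 0.05), so the numbers were not taken as pairs. Precision depends on the number of libraries and the spread between them as well as on depth. Depth was 21324156 to 37901110 reads on genes per library. One marker list is not reported here.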

Additional observations from a re-analysis of the deposited data

Results flagged for a closer look

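Among 20 groups of 4 to 10 libraries (the 5 genes in microglia and co-cultures), 1 library stood apart from the rest of its group by Dixon's criterion. Ddx58 in co-culture anti-miR-99b replicate 10 was at 11.3 CPM, whereas the other 6 anti-miR-99b libraries lay between 8.72 and 9.70 CPM. Chance alone marks about 1 in 20 such groups. Dixon's criterion was not applied to the PFC groups, which have 3 libraries each.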

How the results depend on the processing

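Of 249 values recomputed under alternatives that left out no replicate, 195 kept their direction and their side of the threshold or moved by less than the spread between replicates, and all values did so under RLE factors, upper-quartile factors and a minimum of 10 reads per library. In PFC tissue, where 0 of the 5 genes and 0 pathway genes passed, DESeq2 passed 1 of the 5 (Dhx58, 0.81) and 3 pathway genes, and lane as a block passed 2 (Ddx58 0.68, Dhx58 0.83) and 5. Without a filter beyond a total count of 1, 4 passed (Ddx58 0.66, Ifih1 0.51, Dhx58 0.80, Eif2ak2 0.51) with 8 pathway genes, and with 1 factor of unwanted variation 4 passed (0.77, 0.59, 0.86 and 0.64) with 7. With the replicate block, which used only the 4 libraries whose numbers occur in both groups, 4 passed (Ddx58 1.00, Ifih1 0.72, Dhx58 1.02, Eif2ak2 0.89) with 9 pathway genes. Over all genes DESeq2 passed 84 in the PFC, 40 in microglia and 281 in co-cultures. For the other alternatives and for fits that left out a replicate, no count over all genes is given here. The numbers of genes passing in them are therefore not a result particular to these genes. Without the filter the SE of Ddx58 in microglia was 0.04, against 0.07 in the main fit.

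In microglia DESeq2 passed 2 of the 5 and 1 pathway gene, and Ddx58 (0.38) and Dhx58 (0.40) no longer passed. With the replicate block Ifih1 (0.10) no longer passed and Mavs turned to -0.0035, and with the astrocyte covariate Ifih1 (0.19) no longer passed. In co-cultures, where 2 pathway genes passed, 4 did with DESeq2, 5 without the filter, 1 with lane as a block, 1 with the replicate block and 0 with the microglia covariate, which also turned Ddx58 (-0.10) and Dhx58 (-0.10). With 1 factor of unwanted variation Ifih1 (0.24) passed, so 1 of the 5 did, with 7 pathway genes. In limma-voom the difference of Ddx58 between PFC and co-cultures passed (0.60), and those of Mavs between PFC and microglia (-0.038) and of Ifih1 between co-cultures and microglia (0.00094) turned sign. The cause of these changes was not tested.

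TMM factors within each experiment set the CPM per kb to 6.61 and 5.59 (Ifih1), 18.3 and 17.9 (Mavs) and 16.4 and 13.6 (Eif2ak2) in anti-miR-99b and sc-control microglia, and to 1.74 (Dhx58, anti-miR-99b), 3.01 and 2.87 (Mavs) in the PFC. Leaving out each replicate gave in the PFC 0.46 to 0.93 (Ddx58), 0.27 to 0.66 (Ifih1), 0.70 to 1.01 (Dhx58), 0.05 to 0.11 (Mavs) and 0.16 to 0.76 (Eif2ak2), with 0 to 2 of the 5 and 0 to 7 pathway genes passing, the higher counts without sc-control replicate 4. In microglia it gave 0.33 to 0.46, 0.19 to 0.30, 0.34 to 0.48, 0.01 to 0.06 and 0.22 to 0.31, with 0 to 4 of the 5 and 0 to 9 pathway genes passing.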

Other observations

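In the PFC some genes of the pathway lists had groups that did not overlap, higher after anti-miR-99b, as did 7.52% of all genes. They were 3 of 18 regulators, 5 of 21 genes of MAVS signalling and 1 of 14 of the eIF2alpha kinase list. The other lists had 2 of 14 stress response targets, 0 of 4 interferon genes and 2 of 6 endosomal receptors. These genes did not pass the threshold in edgeR. The genes named here were singled out after their values were seen. Irf7 averaged 12.4 CPM in sc-control and 26.1 CPM in anti-miR-99b libraries (log2FC 1.07, edgeR adjusted p = 0.286), Ifit3 averaged 10.4 and 19.9 CPM (log2FC 0.94, adjusted p = 0.465), and Ripk1, a kinase recruited by adaptor complexes, averaged 4.20 and 7.27 CPM (log2FC 0.79, adjusted p = 0.234). Among the regulators, Uba7, the enzyme that activates ISG15, averaged 8.72 and 13.1 CPM (log2FC 0.58, adjusted p = 0.281) and Trim25, a ubiquitin ligase that acts on RIG-I, averaged 13.1 and 18.0 CPM (log2FC 0.46, adjusted p = 0.374). DESeq2 passed Ripk1 (adjusted p = 0.0202) and Uba7 (0.0426), but not Irf7 (0.425), Ifit3 (0.884) or Trim25 (0.194). It also passed 1 of the endosomal RNA receptors.

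Traf3, an adaptor downstream of MAVS, averaged 118 CPM in sc-control and 111 CPM in anti-miR-99b co-cultures with no overlap between groups. The share of all genes that were lower without overlap was not computed. The adjusted p of Traf3 was 0.0356 in edgeR, but its log2FC of -0.09 did not reach the cut of 0.1. In the same co-cultures 11 of 14 targets of the integrated stress response had a higher mean after anti-miR-99b. Of these 5 had an unadjusted p under 0.05 in edgeR, as did 13.2% of all genes in either direction. Among the 5 were Ddit3 (log2FC 0.14, adjusted p = 0.0927) and Atf4 (log2FC 0.08, adjusted p = 0.119). Microglia markers were higher in these libraries (9 of 19 past the threshold). With their level as a covariate 0 genes of the lists passed, in a fit that cannot fully separate that level from the treatment. Markers of blood cells summed to 59.5 to 112 CPM in anti-miR-99b and 70.7 to 82.6 CPM in sc-control PFC libraries.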
